A study of Mus musculus with 16 samples.

Results

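Etv1, Etv4 and Etv5 encode the PEA3 subfamily of ETS transcription factors, and their messenger RNA was followed here in cultured mouse THY-1+ germ cells given FGF9 or FGF2. The genes were chosen by symbol, and the 3 of them are among the 54432 genes of the results table. The cells were kept for a week with low-dose FGF9 (1 ng/mL), high-dose FGF9 (20 ng/mL), FGF2 (1 ng/mL) or no FGF (control). Every group, the control included, also received GDNF (20 ng/mL) and its co-receptor GFRA1 (150 ng/mL) in serum-free medium, and all cultures had been maintained with 1 ng/mL FGF2 before the treatment. The cells were enriched by magnetic beads for CD90.2 from testes of male C57 LacZ pups about a week old, were used between passages 9 and 12, and grew on STO feeders, a mouse fibroblast line, from which they were collected. The paper describes the gentle blowing of cells off the feeders as giving high germ cell purity. Feeder RNA can still be part of a library. The labels list 16 samples, 4 per group, whereas the table is titled for 12 libraries, so 3 libraries per group were assumed wherever a number was needed.

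ETS factors share a DNA-binding domain, the ETS domain, that contacts a core of GGAA. The PEA3 genes are among the best known transcriptional outputs of FGF receptors and of the GDNF receptor RET, acting through ERK, and the proteins are themselves substrates of ERK. In the testis, ETV5 is required for the maintenance of spermatogonial stem cells, and in cultured germ cells Etv5 is one of the genes that GDNF regulates, together with Bcl6b and Lhx1. Capicua, a repressor that ERK inactivates, holds the PEA3 genes down in other cell types, and the COP1 ubiquitin ligase degrades PEA3 proteins.

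The part of the messages that the genes have most in common is shown first, because reads from such a part could be assigned to the wrong paralog. In GRCm38, with the GENCODE M21 annotation, Etv1 (ENSMUSG00000004151) lies at chr12:38779380-38870484 on the plus strand, Etv4 (ENSMUSG00000017724) at chr11:101769742-101785371 on the minus strand and Etv5 (ENSMUSG00000013089) at chr16:22381309-22439719 on the minus strand. No other annotated gene overlaps any of them. The stretch of 120 coding bases with most bases common to all 3 genes ran across the junction of exons 12 and 13 in the transcript of each gene with the longest coding sequence. With the intron between, it spanned chr12:38861326-38865604 in Etv1, chr11:101770534-101771031 in Etv4 and chr16:22383635-22386819 in Etv5, and it codes for part of the ETS domain. The sequences are given 5′ to 3′ on the coding strand, with the 96 bases that are identical in all 3 genes in capitals.
Etv1: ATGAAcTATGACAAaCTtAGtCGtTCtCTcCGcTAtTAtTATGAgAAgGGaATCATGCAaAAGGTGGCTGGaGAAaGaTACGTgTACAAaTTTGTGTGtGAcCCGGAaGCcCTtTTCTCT
Etv4: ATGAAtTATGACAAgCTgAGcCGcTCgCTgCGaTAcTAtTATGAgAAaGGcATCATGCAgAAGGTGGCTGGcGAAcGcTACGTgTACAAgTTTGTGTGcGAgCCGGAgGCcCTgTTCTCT
Etv5: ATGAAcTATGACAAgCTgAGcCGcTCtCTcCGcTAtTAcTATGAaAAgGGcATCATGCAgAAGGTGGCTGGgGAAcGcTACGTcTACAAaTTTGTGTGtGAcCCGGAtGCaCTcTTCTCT
In this stretch, Etv1 and Etv5 were identical at 87.5% of bases, Etv4 and Etv5 at 86.7% and Etv1 and Etv4 at 83.3%. The differing bases are scattered, so that the longest run shared anywhere between annotated transcripts was 23 bases for Etv1 and Etv5, 23 for Etv4 and Etv5 and 18 for Etv1 and Etv4. No run of 31 bases was shared by any pair of the 3 genes. Processed pseudogenes are closer copies than the paralogs. Gm4798 on chromosome 10 holds 1276 of the 4215 distinct runs of 31 bases of the Etv5 transcripts, and Gm5454 on chromosome 13 holds 1244 of the 13366 of Etv1, more than any other gene, whereas no other gene shares such a run with Etv4. The mean normalized counts of these pseudogenes over all libraries were 3.51 for Gm4798 and 1.32 for Gm5454, too low to be tested. The derived mean of Gm5454 was 4.53 with high-dose FGF9 and 0.256 in each of the other groups, and that of Gm4798 was 0.984 with low-dose FGF9, 8.30 with high-dose FGF9, 3.76 with FGF2 and 0.996 in the control. Derived means this near 0, such as the 3 equal values of Gm5454, come from the fitted fold changes and are not measured levels. Both derived means were highest with high-dose FGF9, but at so few counts this order is uncertain. The part of such reads in the levels of Etv1 and Etv5 was not tested. The handling of reads that fit both a gene and its pseudogene is not stated in the labels or methods read here, so a part of the Etv5 and Etv1 reads is of uncertain assignment.

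The 3 genes sat at very different levels. Etv5 had a mean of 12748 normalized counts over all libraries, above 98.7% of the 17755 genes tested, which are those averaging 10 or more. Etv4 had 2699, above 84.1% of them, and Etv1 had 71.0, above 27.2%. Per kilobase of the longest annotated transcript, the order was the same, with mean levels of 3207 normalized counts per kb for Etv5, 1127 for Etv4 and 10.8 for Etv1. Etv5 and Etv4 were thus abundant messages of these cultures and Etv1 a scarce one.

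The table holds no value per library, so each group's level was derived from the overall mean together with the fold changes, and its 95% interval from the standard errors. The derived mean of Etv5 was 11975 normalized counts with low-dose FGF9 (95% interval 11189 to 12816), 12699 with high-dose FGF9 (11866 to 13590), 13764 with FGF2 (12862 to 14729) and 12556 in the control (11732 to 13437). The highest group, FGF2, was 1.15 times the lowest, low-dose FGF9, and the intervals of these groups did not overlap, while every other pair of intervals did. Etv4 had derived means of 2692 normalized counts with low-dose FGF9 (2449 to 2958), 2474 with high-dose FGF9 (2251 to 2719), 2886 with FGF2 (2626 to 3171) and 2743 in the control (2496 to 3015). Here too FGF2 was the highest group, while high-dose FGF9 was the lowest, and the ratio between them was 1.17. For Etv1 the derived means were 44.5 with low-dose FGF9 (21.5 to 92.1), 177 with high-dose FGF9 (87.0 to 362), 26.4 with FGF2 (12.6 to 55.5) and 35.5 in the control (17.1 to 73.9). The interval of Etv1 with high-dose FGF9 did not overlap that of FGF2 or of the control, and it overlapped that of low-dose FGF9 at its lower end.

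**Figure D1:**
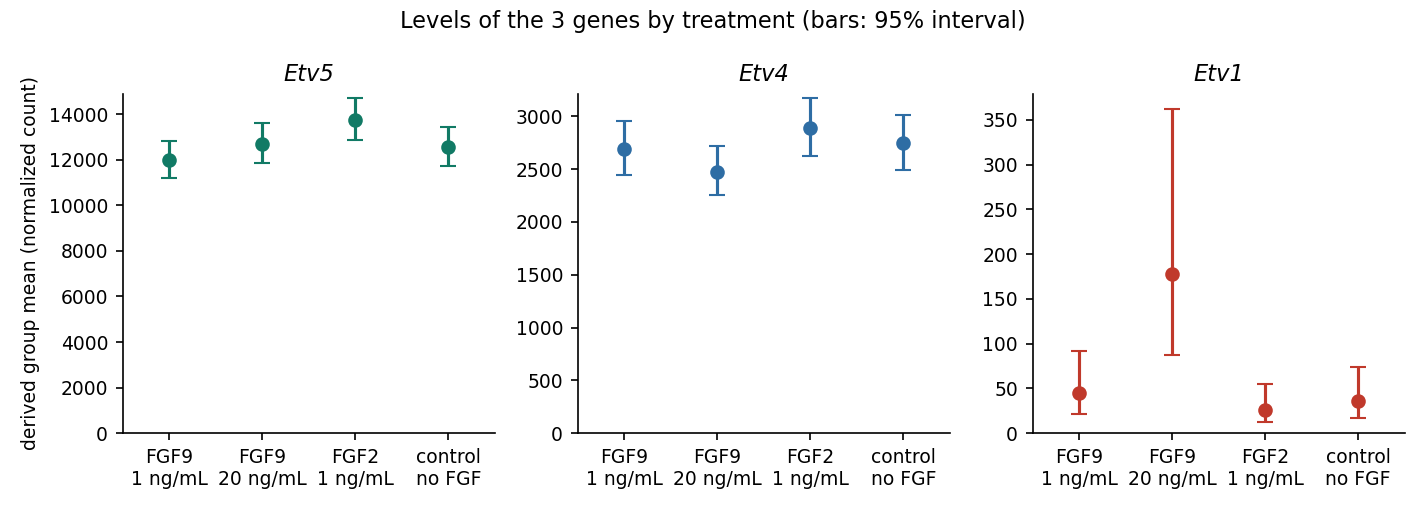
Derived group mean in normalized counts of Etv5, Etv4 and Etv1 (one panel each, linear axes from 0) in cells given low-dose FGF9, high-dose FGF9, FGF2 or no FGF. Points are derived means and bars 95% intervals; Etv5 and Etv4 lie at one height across the groups within 1.15 and 1.17 times, and Etv1 stands at 177 with high-dose FGF9 against 26.4 to 44.5 elsewhere.

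The comparisons with the control ask which of these genes responds to each FGF when GDNF is present. With high-dose FGF9, none of the 3 genes was called at an adjusted p under 0.05, against 2.75% of the genes tested. For 3 genes, no call is near that share. The test is the authors' DESeq2 Wald test, with the Benjamini-Hochberg adjustment made here over the genes tested. Adjusted p-values given below as by DESeq2 are of this kind. Of the 3 genes 1, Etv1, had an unadjusted p under 0.05. Etv5, at 12699 normalized counts against 12556 in the control, stood at 1.01 times the control (95% interval 0.919 to 1.11, adjusted p = 0.978). At its standard error a fold change of 1.17 upwards or 0.855 downwards would have been called. Etv4 had a fold change of 0.902 (0.789 to 1.03, adjusted p = 0.627), and its limits for a call were 1.24 and 0.804.

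Etv1 gave by far the widest estimate. Its derived mean was 177 normalized counts with high-dose FGF9 and 35.5 in the control, a fold change of 4.99 (1.80 to 13.9, log2 fold change 2.32 ± 0.75, SE). The unadjusted p of the DESeq2 Wald test was 0.0020, and the p adjusted here over the genes tested was 0.064. The change thus missed the threshold, and a fold of 5.30 would have been needed at this standard error. Of the genes tested, 0.467% had a larger log2 fold change. By the p of the Wald test, Etv1 ranked lower, at 563 of the 17755 genes. In bulk RNA such as this, more cells of a type and more RNA per cell cannot be told apart. The adjusted p of Etv1 ran between 0.055 and 0.123 under the alternative filters, centring and the adjustment of the table itself, always above 0.05.

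No PEA3 gene was called against the control with either treatment at 1 ng/mL, where few genes of any kind were called. With low-dose FGF9, where 0.0789% of the genes tested were called, none of the 3 genes was called and none had an unadjusted p under 0.05. The fold changes of Etv5, Etv4 and Etv1 were 0.954 (0.866 to 1.05), 0.981 (0.858 to 1.12) and 1.25 (0.442 to 3.55). With FGF2, where 0.146% were called, again none of the 3 was called and none reached an unadjusted p under 0.05. Etv5 had a fold change of 1.10 with FGF2 (0.996 to 1.21, adjusted p = 1 by DESeq2), Etv4 of 1.05 (0.921 to 1.20) and Etv1 of 0.744 (0.264 to 2.09). The intervals of Etv5 and Etv4 spanned 0.858 to 1.21 at their widest, whereas those of Etv1 ran down to 0.264 and up to 3.55. To be called upwards, Etv1 would have needed a fold change of 8.98 with low-dose FGF9 and 8.20 with FGF2. For 3 genes, the absence of calls is near the background.

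The direct contrasts between FGF treatments were rebuilt from the same fits, as the difference of a pair of log2 fold changes divided by its standard error, which follows from the group levels and the implied dispersion, with adjustment over 17726 genes. They ask whether dose or ligand makes a difference. Between high-dose FGF9 and FGF2, 1 of the 3 genes was called, against 1.17% of the genes tested. That gene was Etv1, which was higher with high-dose FGF9, at 177 normalized counts against 26.4 with FGF2. Its fold change was 6.71 (2.40 to 18.8, log2 fold change 2.75 ± 0.76, SE, adjusted p = 0.031 by the rebuilt Wald test). The call was lost without the filter on low counts (adjusted p = 0.062) and with a larger standard error that adds the spread of the control libraries (adjusted p = 1.00).

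Etv4 and Etv5 had lower derived means with high-dose FGF9 than with FGF2 but did not pass. Etv4 had 2474 normalized counts against 2886, a fold change of 0.857 (0.750 to 0.980, adjusted p = 0.444 by the rebuilt Wald test), and Etv5 had 12699 against 13764, a fold change of 0.923 (0.838 to 1.02, adjusted p = 0.772).

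Between the doses of FGF9, none of the 3 genes was called, against 2.57% of the genes tested, which is near that share for 3 genes. Etv1 had 177 normalized counts at 20 ng/mL and 44.5 at 1 ng/mL, a fold change of 3.99 (1.44 to 11.0, adjusted p = 0.158 by the rebuilt Wald test). The fold changes of Etv5 and Etv4 were 1.06 (0.963 to 1.17) and 0.919 (0.804 to 1.05). Between FGF9 and FGF2 at the matched dose of 1 ng/mL, none of the 3 was called, against 0.406% of the genes tested, again near that share. Etv5 was the one with an unadjusted p under 0.05 in that contrast. It had 11975 normalized counts with FGF9 against 13764 with FGF2, a fold change of 0.870 (0.790 to 0.958, adjusted p = 0.279), and a fold change of 0.834 would have been called. The contrasts of the 4 groups are not independent of each other, since each group enters 3 of them.

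**Figure D2:**
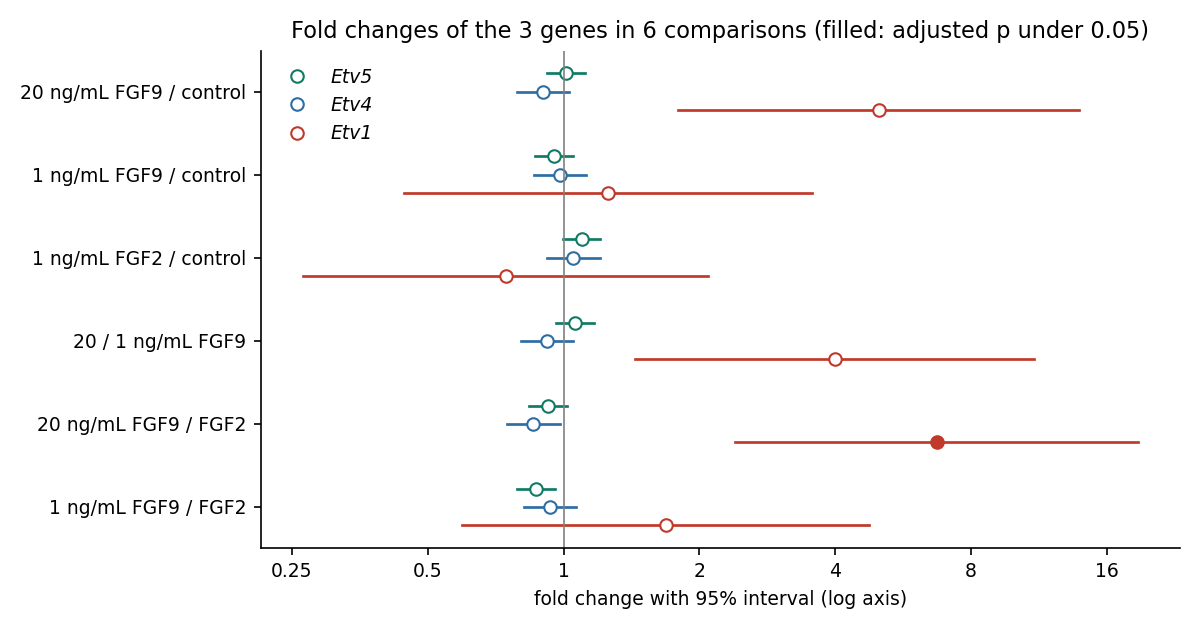
Fold change with its 95% interval (log axis) of Etv5, Etv4 and Etv1 in the 6 comparisons between groups, each row with the numerator named first. Filled points have an adjusted p under 0.05; the single filled point is Etv1 in high-dose FGF9 over FGF2 at 6.71, and the intervals of Etv5 and Etv4 are narrow and close to 1.

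Ordered by level, the groups stood differently for each gene, and no step between neighbours passed the test in any of the orders. For Etv5 the order was FGF2, high-dose FGF9, control and low-dose FGF9. For Etv4 it was FGF2, control, low-dose FGF9 and high-dose FGF9. For Etv1 it was high-dose FGF9, low-dose FGF9, control and FGF2, the reverse of the order of Etv4.

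The spread between libraries also separated Etv1 from its paralogs. The standard errors imply a coefficient of variation between libraries of 62.6% for Etv1, 8.11% for Etv4 and 5.93% for Etv5. These are the values of the fitted dispersion, which DESeq2 moderates towards a trend, and not those of single libraries. Among the 1776 genes with a mean within 1.5 times that of Etv1, the median was 22.6%, and 95.9% had a lower value than Etv1. Etv4 stood above 70.8% of its 2471 neighbours in level, whose median was 6.57%, and Etv5 above 61.2% of its 399, whose median was 5.51%. Etv1 was thus far more variable than genes of its level, and Etv4 and Etv5 were unremarkable. Whether 1 library carries the Etv1 value cannot be seen without values per library.

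**Figure D3:**
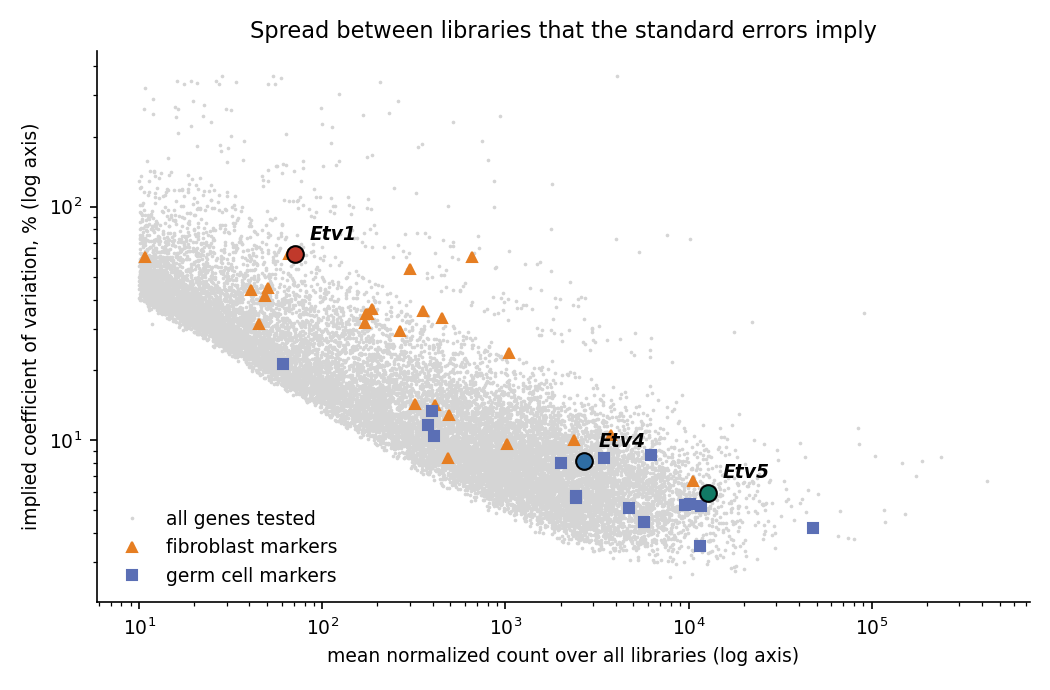
Implied coefficient of variation between libraries (percent, log axis) against the mean normalized count over all libraries (log axis) for the genes tested with a value above 1%, with the 3 genes, the fibroblast markers and the germ cell markers marked. Etv1, at 62.6%, lies at the upper edge of the cloud together with several fibroblast markers, and Etv4 and Etv5 lie in its body among the germ cell markers.

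Some fibroblast markers rose with high-dose FGF9, the group in which Etv1 was highest. Of 28 fibroblast markers, all were in the table, none was at 0, and 24 were tested. Lum, Acta2, Tagln and Fap had means under 10. The list was chosen with earlier results of these data known. Its calls and medians in all comparisons are therefore description and no separate evidence. With high-dose FGF9 against the control, 5 of the 24 rose, none fell and 19 did not pass, against 2.75% of all genes tested called in either direction, and the median log2 fold change of the list was 1.17, beside -0.00083 over all genes tested. The genes that rose were S100a4, a calcium-binding protein of motile fibroblasts, Vim, the mesenchymal intermediate filament vimentin, Bgn and Dcn, matrix proteoglycans, and Sparc, a collagen-binding matrix protein. S100a4 had 454 normalized counts with high-dose FGF9 against 36.6 in the control, and Vim had 2168 against 645, fold changes of 12.4 and 3.36. The fold changes of Bgn, Dcn and Sparc were 3.32, 3.05 and 2.60. The rise was not shared by the whole list. The most abundant markers, Fn1, Col5a1 and Col1a1, had fold changes of 1.06, 1.08 and 1.17 and did not pass. Of the 24, 21 had a fold change above 1, and Postn, Twist1 and Fbn1 stood below it at 0.721, 0.909 and 0.973, also without passing. S100a4 was the 1 fibroblast marker with a larger log2 fold change than Etv1.

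The summed level of the 24 markers was 22821 normalized counts with low-dose FGF9, 27795 with high-dose FGF9, 22373 with FGF2 and 21221 in the control. With low-dose FGF9 and with FGF2 none of the 24 was called, against 0.0789% and 0.146% of all genes, so the absence of calls is near the background. The list medians were 0.49 and 0.04 on the log2 scale. S100a4 had fold changes of 3.26 with low-dose FGF9 and 2.32 with FGF2, neither of which passed. In the contrast that called Etv1, high-dose FGF9 against FGF2, 6 of the 24 rose and none fell, against 1.17% of all genes called, with a list median of 0.97. These were S100a4, Vim, Bgn, Dcn, Sparc and Mgp, a matrix protein that inhibits calcification. Between the doses of FGF9, 3 of the 24 rose and none fell, against 2.57% of all genes called, namely S100a4, Vim and Fstl1, a secreted glycoprotein, with a list median of 0.73. Of the 24, 16 had an implied coefficient of variation above 20%, and Thy1 (62.9%), Mgp (61.1%) and Col3a1 (60.8%), picked after their values were seen, were close to the 62.6% of Etv1. Thy1 encodes CD90, the antigen by which these germ cells were selected, so it does not mark fibroblasts alone. The paper marked STO feeders by Sox7, Acta2 and Thy1 together. Of these, Acta2 had a mean of 8.64 normalized counts and was not tested, and Sox7 was not on the list. The part of feeder RNA in the Etv1 result was not tested.

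Most germ cell markers did not pass in any comparison. All 16 were tested, with Dazl at a mean of 47959 normalized counts and Ddx4 at 11536, and their sum was 119162 with low-dose FGF9, 118182 with high-dose FGF9, 120459 with FGF2 and 118748 in the control. Against the control, 1 of 16 fell with high-dose FGF9, Tex101, a germ cell surface protein, at 2152 normalized counts against 2669 (fold change 0.807), against 2.75% of all genes called. None was called with low-dose FGF9 or FGF2, against 0.0789% and 0.146% of all genes. Tex101 was also lower with high-dose than with low-dose FGF9, at 2152 normalized counts against 2532 (fold change 0.850, adjusted p = 0.040 by the rebuilt Wald test). Lin28a, which encodes an RNA-binding protein of undifferentiated spermatogonia, was lower with high-dose FGF9 than with FGF2, at 2143 normalized counts against 2558 (fold change 0.838). The list medians against the control were between -0.02 and 0.04 on the log2 scale, and 1 of the 16 markers had an implied coefficient of variation above 20%. Of the markers of other testis cells, 6 of 9 for Sertoli cells, 1 of 6 for Leydig cells, 2 of 3 for peritubular myoid cells, 2 of 5 for macrophages and 4 of 4 for endothelial cells had a mean of at least 10, and none of them was called in any of the 6 comparisons. Between 0.0789% and 2.75% of all genes tested were called in these, so the absence of calls is near the background.

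**Figure D4:**
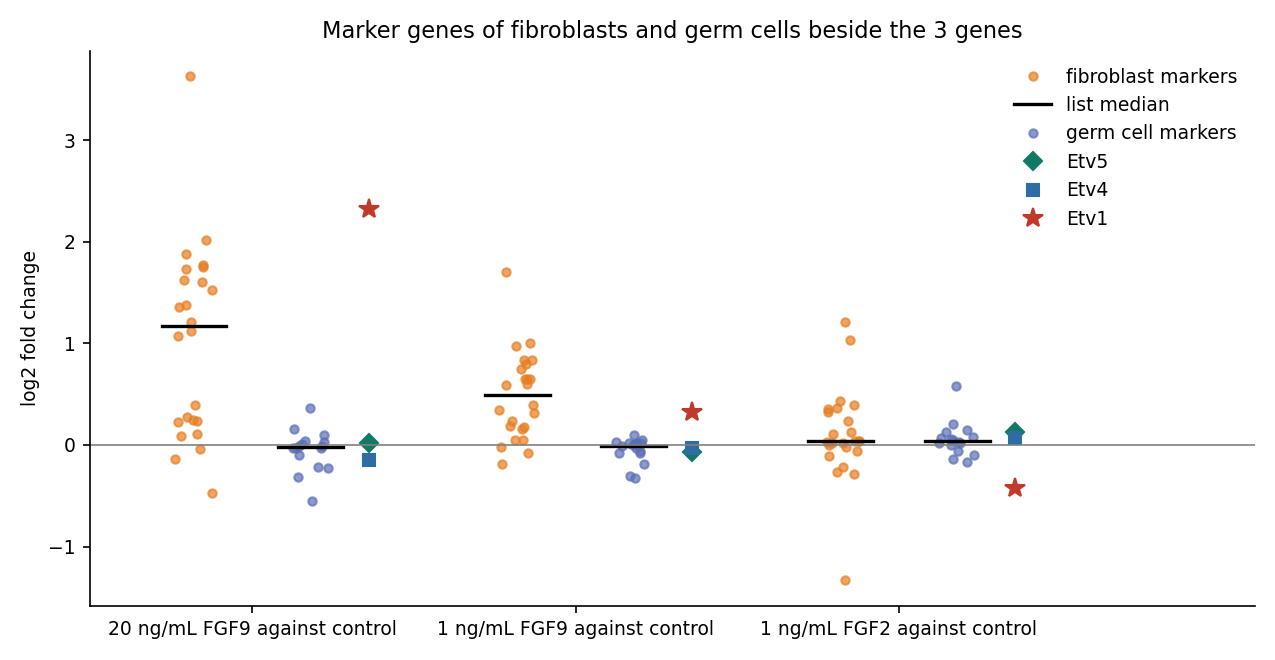
Log2 fold change against the control of 24 fibroblast markers and 16 germ cell markers (points, with the list median as a bar) beside Etv5, Etv4 and Etv1 for high-dose FGF9, low-dose FGF9 and FGF2. With high-dose FGF9 the fibroblast markers centre on 1.17 and Etv1 stands at 2.32, whereas the germ cell markers, Etv4 and Etv5 lie close to 0.

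By the likeness of their pattern, the 3 genes kept different company. The measure was the Euclidean distance over the 3 log2 fold changes against the control, over 12034 named genes with a mean of at least 50. The fold changes of the neighbours against the control therefore follow from how they were chosen and are no separate evidence. Nearest to Etv1 were Cd34 (distance 0.12), a surface sialomucin, Timp2 (0.38), an inhibitor of metalloproteinases, Ddr2 (0.38), a collagen receptor kinase, Oaf (0.43) and Zdhhc2 (0.44), a palmitoyltransferase. With high-dose FGF9, Cd34 had 488 normalized counts against 103 in the control, a fold change of 4.76 (adjusted p = 6.36e-05 by DESeq2), and Timp2 had 1056 against 233, a fold change of 4.54 (adjusted p = 4.71e-06). Ddr2 and Oaf were also called in that comparison, with fold changes of 4.93 and 6.45, and Zdhhc2 was not, with 4.11 (adjusted p = 0.082). Their implied coefficients of variation were between 32.2% for Timp2 and 56.9% for Zdhhc2, below the 62.6% of Etv1.

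Nearest to Etv4 were Ttpal, Reep2, Isoc2a, Gins3 and Camk1d, at distances between 0.01 and 0.02. Nearest to Etv5 were Dedd2, Rce1, Aamp, Plekhm1 and Gnao1, at the same range of distances. All 10 had fold changes close to 1, which the way they were chosen required, and none was called against the control. Aamp was lower with low-dose FGF9 than with FGF2, at 5856 normalized counts against 6823 (adjusted p = 0.045 by the rebuilt Wald test), the contrast in which Etv5 had its smallest p.

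The other ETS factors were examined beside the PEA3 genes. Of 24 other ETS factors 19 were tested, and Elf5, Ehf, Spi1, Spib and Spdef had means under 10. With high-dose FGF9 against the control, 1 of 19 fell, none rose and 18 did not pass, with a median log2 fold change of -0.04. Of all genes tested 2.75% were called, so the count of 1 is near the background. The gene that fell was Ets2, an ETS factor activated by ERK phosphorylation, at 436 normalized counts with high-dose FGF9 and 621 in the control, a fold change of 0.702 (0.595 to 0.828, adjusted p = 0.0027 by DESeq2). Its fold change was 0.844 with low-dose FGF9 and 0.772 with FGF2, neither of which passed. None of the 19 was called with low-dose FGF9, with FGF2 or in the direct contrasts, where between 0.0789% and 2.57% of all genes tested were called. The median coefficient of variation of the 19 factors was 10.1%, with a highest value of 48.9%, so Etv1 was the most variable of the 22 ETS factors tested.

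**Figure D5:**
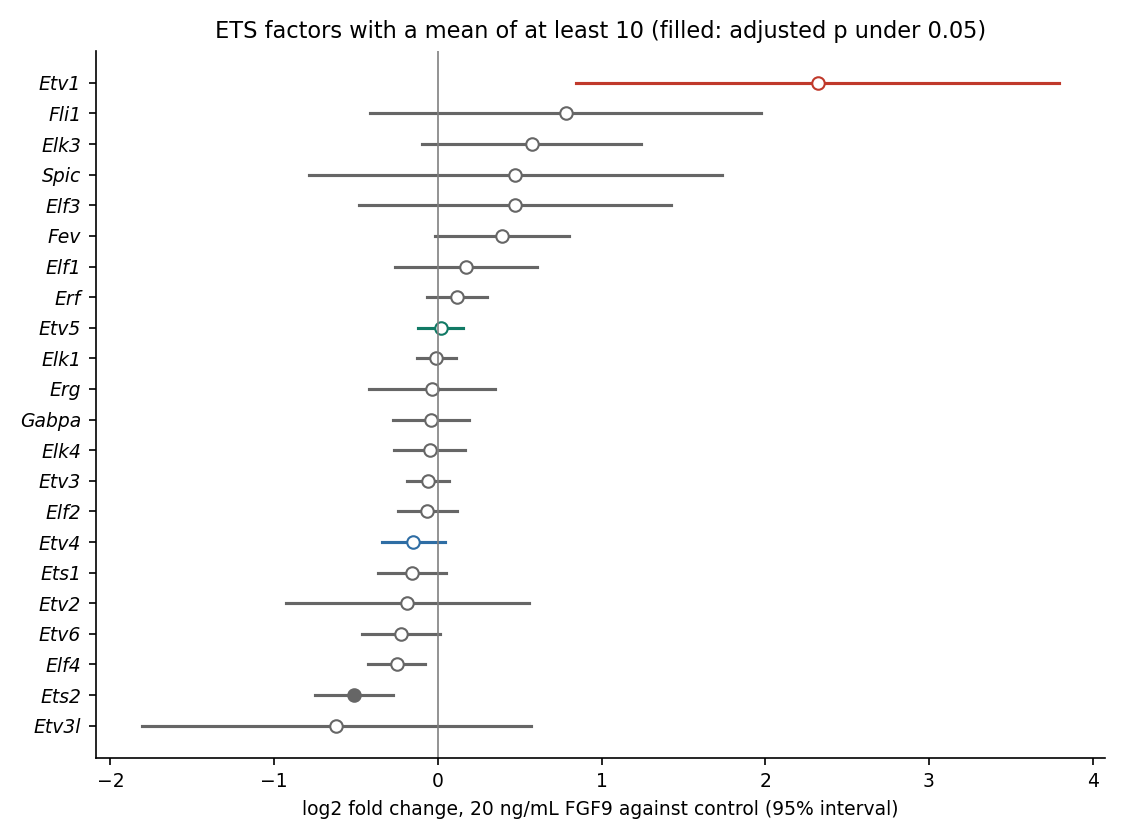
Log2 fold change of the ETS factors with a mean of at least 10 in high-dose FGF9 against the control, with 95% intervals, ordered from the largest at the top. Etv1 stands at the top at 2.32 with an open point (not called), Ets2 near the bottom is the one filled point (called), and Etv5 and Etv4 lie near 0.

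The receptors through which FGF and GDNF reach the PEA3 genes gave no call. All 12 of a list of FGF and GDNF receptors and their adaptors were tested, and none passed in any of the 6 comparisons. Between 0.0789% and 2.75% of all genes tested were called in these, so the absence of calls is near the background. The median log2 fold changes against the control were 0.03 with high-dose FGF9, 0.01 with low-dose FGF9 and 0.04 with FGF2. The smallest p belonged to Fgfr1, which encodes a receptor for FGF2, at 3073 normalized counts with FGF2 against 2521 in the control, a fold change of 1.22 (1.09 to 1.37, adjusted p = 0.172 by DESeq2). Gfra1, the GDNF co-receptor of these cells, had fold changes of 1.12 with high-dose FGF9 and 1.15 with FGF2 (1.06 to 1.25, adjusted p = 0.199). Fgfr3, a receptor for FGF9, had 174 normalized counts with high-dose FGF9 and 172 with FGF2, against 265 in the control, and did not pass in either comparison. Fgfr2 had 211 with high-dose FGF9 and 226 with FGF2, against 110 in the control, with an implied coefficient of variation of 33.1%, and did not pass either.

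Genes that report ERK activity, as the PEA3 genes do, were set beside them. Of 13 feedback genes (the Spry and Spred inhibitors, Il17rd and the Dusp phosphatases), 12 were tested. None was called against the control in any of the 3 comparisons, where between 0.0789% and 2.75% of all genes tested were called. Their median log2 fold changes were 0.16 with high-dose FGF9, -0.00025 with low-dose FGF9 and 0.08 with FGF2, beside values between -0.0037 and 0.00043 over all genes tested. Between high-dose and low-dose FGF9, 2 of 12 rose and none fell, against 2.57% of all genes called. These were Dusp4, a nuclear MAP kinase phosphatase, at 761 normalized counts against 572 (fold change 1.33, adjusted p = 0.029 by the rebuilt Wald test), and Dusp5, a nuclear phosphatase of ERK, at 2233 against 1892 (fold change 1.18, adjusted p = 0.015). The fold change of Etv5 in the same contrast was 1.06, and that of Etv4 was 0.919.

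The known regulators of PEA3 genes and proteins gave no call in any comparison. The share of all genes tested that was called ran from 0.0789% to 2.75%, so the absence of calls is near the background. Of 11 entries for capicua with its partners and for the COP1 ligase with its subunits and Tribbles adaptors, 10 were found and tested, one entry being an older name of Cop1. Cic, the capicua gene, had 8731 normalized counts with high-dose FGF9 and 8988 with FGF2, against 7783 in the control, fold changes of 1.12 and 1.15. Atxn1, a capicua partner, had a fold change of 1.48 with high-dose FGF9 and an implied coefficient of variation of 33.9%. Cul4a, a cullin that carries COP1, had the smallest p of the list, with a fold change of 1.17 with FGF2 (1.03 to 1.32, adjusted p = 0.612 by DESeq2), and Trib1 had 0.894 with high-dose FGF9.

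Genes reported downstream of Etv5 in germ cells were examined next. Of 6 such genes 5 were tested, Ccr9 having a mean of 1.22 normalized counts, and none was called in any of the 6 comparisons. Between 0.0789% and 2.75% of all genes tested were called in these, so the absence of calls is near the background. All 5 had a fold change above 1 with high-dose FGF9, with a median log2 fold change of 0.12, and 4 of 5 with FGF2, with a median of 0.23. Bcl6b, a transcriptional repressor used in stem cell self-renewal, had 4521 normalized counts with low-dose FGF9, 5298 with high-dose FGF9, 5210 with FGF2 and 4236 in the control. Its fold changes against the control were 1.25 with high-dose FGF9 (1.02 to 1.53, adjusted p = 0.342 by DESeq2) and 1.23 with FGF2. Lhx1, a homeobox factor, had a fold change of 1.22 with high-dose FGF9 and of 1.28 with FGF2 (1.07 to 1.52, adjusted p = 0.440). T, which encodes brachyury, and Ret had fold changes of 1.06 and 1.04 with high-dose FGF9.

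Of 10 genes regulated by GDNF, a list that shares Bcl6b, Lhx1, T and Cxcr4 with the one before, 1 rose with high-dose FGF9 and none was called with low-dose FGF9 or FGF2, against 2.75%, 0.0789% and 0.146% of all genes tested. It was Id4, an inhibitor of DNA binding expressed in spermatogonial stem cells, at 766 normalized counts with high-dose FGF9 against 542 in the control (fold change 1.41, 1.22 to 1.64, adjusted p = 6.25e-04 by DESeq2). Id4 was also higher with high-dose FGF9 than with low-dose FGF9, at 766 against 568 normalized counts. The median log2 fold changes of the 10 genes were 0.17 with high-dose FGF9, 0.04 with low-dose FGF9 and 0.28 with FGF2, while those of Etv5 were 0.02, -0.07 and 0.13.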

How the data were processed

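The authors prepared stranded mRNA libraries, used STAR and Salmon with GRCm38, and compared groups with DESeq2. Versions, and the treatment of strand and of multi-mapping reads, are not given in the sources read. The deposited table holds their results and 0 columns of values per library, so depth per library is unknown: each gene has 1 mean of normalized counts (a signal, over all libraries) and, per comparison with the control (3), a log2 fold change, its standard error, a Wald statistic (a score), a p-value and an adjusted p-value by the authors. Here, the p-values that the authors had deposited from DESeq2 were adjusted by Benjamini-Hochberg over the 17755 genes averaging 10 or more normalized counts. Derived group means assume equal group sizes, and dispersions assume 3 libraries per group. The dispersions, group intervals and direct contrasts also assume a fit without a replicate term. The methods read do not state whether the authors' model held one. Direct contrasts covered the 17726 genes whose derived mean reached 1 in every group. All steps were run with Python 3.11.15, numpy 2.4.6, pandas 2.3.3 and scipy 1.17.1, and the scripts were tested on simulated data. The simulated standard errors were made from known dispersions by the same formula that the scripts invert. That test therefore checks the arithmetic, and not whether the formula holds for the real table. Intervals are 95% normal intervals and cover the fitted spread between libraries, which the labels call biological replicates. Sequences come from GENCODE M21 transcripts. Members and lists were chosen with earlier results of these data known. Named genes were every list member called in any comparison, otherwise up to 4 with the smallest p, and the 5 nearest genes of each member.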

Additional observations from a re-analysis of the deposited data

How the results depend on the processing

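The 3 genes were recomputed in the 6 comparisons under other filters (none, or a mean of at least 50), centring on the median of all genes, the adjusted p-value of the table itself, 4 libraries per group and a larger standard error for the direct contrasts. All settings start from the same deposited fits, and the setting of 4 libraries was rebuilt from the same standard errors. Only centring altered the fold changes, and by little, so a reversal was hardly possible. Of the 81 recomputed values 79 kept their direction and their side of the threshold and none reversed. The exceptions were both Etv1 in high-dose FGF9 against FGF2, at a log2 fold change of 2.75. It no longer passed without a filter (adjusted p = 0.062 by the rebuilt Wald test) or with the larger standard error (adjusted p = 1.00). That standard error counts the spread of the shared control libraries, which the contrast does not contain, and under it the genes called fell to 52 between FGF9 doses (455 otherwise), to 23 between high-dose FGF9 and FGF2 (207) and to 2 between low-dose FGF9 and FGF2 (72). With low-dose FGF9 against the control, 34 genes were called without a filter and 35 by the table's adjusted p-values, beside 14, and with FGF2 43 by the table's, beside 26. The cause was not tested. With 4 libraries per group, the implied coefficients of variation were 72.8% for Etv1, 9.43% for Etv4 and 6.87% for Etv5. No paired analysis was possible because the table holds no value per library, and for the same reason the fits with the replicate block and those leaving out each library were not run. A library that alone carries the Etv1 level would not be seen here, and the depth of each library is unknown.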
